A study of Homo sapiens with 22 samples.

Results

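CER1-high cells are a minority of the cells harvested on days 13 and 15 (D13 and D15) of the reprogramming of human fibroblasts to induced pluripotent stem cells. A cell was a member when CER1 reached 200 CPM, that is, its unique molecular identifiers (UMIs, the molecules counted per gene) scaled to the same total in each cell. By this limit 452 of the 8125 cells kept on these days were members, out of 41975 kept cells and 44197 deposited barcodes in the whole time course. They numbered 79 of 1377 cells in pool A of D13, 238 of 4069 in pool B of D13, 18 of 571 in pool A of D15 and 117 of 2108 in pool B of D15. They were compared with 3672 cells of the same pools that had 0 CER1 UMIs and at least 500 CPM of POU5F1, a core factor of the pluripotent state. These are called CER1-negative cells below. Since the CER1 and POU5F1 counts chose the cells of both classes, those 2 genes are described and not tested.

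The cells were BJ fibroblasts, an established line from human foreskin, reprogrammed in microfluidic chambers by 8 mRNA transfections, the last on day 8, and kept in StemMACS iPSBrew XF, a stem cell medium, from day 9. All groups used here, D11, D13 and D15, share this line, these transfections and this medium, while the D0 cells used as background were not transfected. Each day has pools A and B, each made from 4 chips, cryopreserved as aliquots and sequenced by 10x 3′ chemistry. The pools are the replicates, and nothing in the descriptions says that they came from separate fibroblast cultures, so the p-values measure the spread between pools only.

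CER1 encodes Cerberus, a secreted antagonist that binds Nodal and BMP ligands outside the cell. Nodal, a ligand of the TGF-beta family, signals through activin receptors, SMAD2 and SMAD3, and in the embryo it drives epiblast cells through the primitive streak towards mesendoderm, the shared precursor of endoderm and mesoderm. EOMES, LHX1, MIXL1 and GSC are transcription factors switched on in this step, SOX17 and FOXA2 mark the definitive endoderm that follows, and CER1 itself is transcribed in cells that receive a strong Nodal signal.

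The share of CER1-high cells was 5.74% in pool A and 5.85% in pool B of D13 (95% Clopper-Pearson intervals 4.57 to 7.10% and 5.15 to 6.61%), and 3.15% and 5.55% in the pools of D15 (1.88 to 4.94% and 4.61 to 6.61%). The D13 mean was 5.79% ± 0.079 (SD, n = 2 pools) and the D15 mean 4.35% ± 1.70, a difference that an exact two-sided permutation test could not resolve (p = 0.33, the smallest p that 2 pools against 2 allow). On D11 the same limit found 222 cells, 3.73% and 3.44% of the pools. On D9 it found 2 cells, and on D0 to D7 it found 0, which allows a share of up to 0.0488% in the largest of these pools, pool A of D0, and of up to 0.368% in the smallest, pool B of D5 (3 counts of the total). These intervals and the limit cover counting error only.

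**Figure D1:**
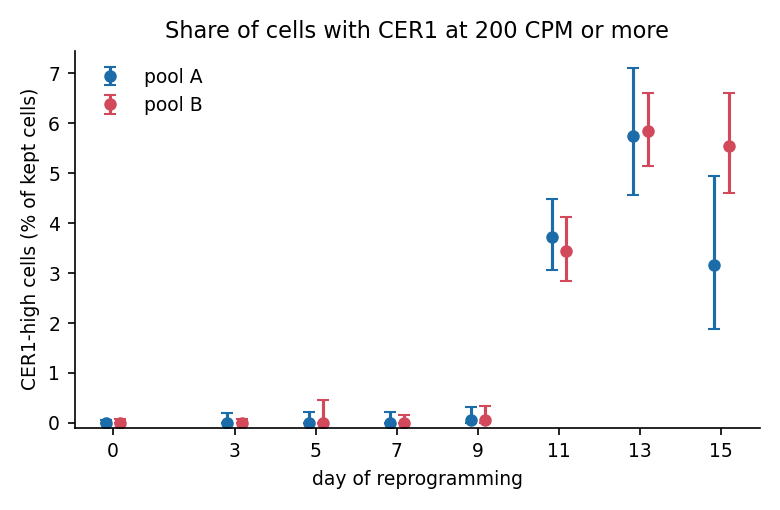
Share of kept cells with CER1 at 200 CPM or more (y axis, %) by day (x axis) in pools A and B, with 95% Clopper-Pearson intervals. Both pools sit near 0 up to D9, at 3.44% or more on D11, and at 5.74% or more on D13, and on D15 pool A lies at 3.15% and pool B at 5.55%.

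CER1, at chr9:14719724-14722733 of GRCh38 on the minus strand, reached 1658, 1863, 1456 and 1589 CPM over the summed members of D13 A, D13 B, D15 A and D15 B. The median member held 38, 36, 48 and 21 CER1 UMIs in these pools, and 10 of the 452 members held fewer than 5. POU5F1 stood at 167, 291, 188 and 237 CPM in members against 1888, 856, 1298 and 1304 CPM in CER1-negative cells, and between 5.06% and 7.56% of members reached the 500 CPM that the reference cells had to reach. Just inside the limit, the 26 cells with 200 to 250 CPM of CER1 had a summed EOMES level of 69.9 CPM and a POU5F1 level of 249 CPM. Just outside it, the 42 cells with 150 to 200 CPM had 34.0 CPM of EOMES and 579 CPM of POU5F1. Cells with traces of CER1, 2738 in number, lay below the limit. Their share differed widely between pools, at 9.95% and 47.8% of the cells of D13 A and D13 B and at 21.2% and 25.5% of those of D15 A and D15 B.

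A CER1 UMI was also found in cells that carry fibroblast collagens. After every cell was thinned to 10000 UMIs, 0.365% of the collagen-high cells of D13 A, 19.7% of those of D13 B, 8.70% of D15 A and 8.33% of D15 B had one, against 94.4% to 99.2% of members and 0 of 10634 D0 fibroblasts. Collagen-high cells were set at 1000 CPM or more of COL1A1 and 200 CPM or more of COL3A1, limits chosen after the data were seen. Members were left out of this group, so its CER1 shares are in part set by that choice. Only 23 cells of D15 A were in it after thinning. Members were shallower than CER1-negative cells in 3 of the 4 pools, with median depths of 38001 against 61846 UMIs in D13 A, 25666 against 36536 in D13 B and 22742 against 30505 in D15 B, while in D15 A they had 57218 against 56876. Their median mitochondrial share was lower in each pool, between 3.36% and 5.75% against 3.93% and 6.40%. No doublets were removed in the main comparison, and the 5% of cells of each library with the highest doublet scores held 8.19% of members and 6.07% of CER1-negative cells. Any pair of the libraries of D11 to D15 shared at most 21 cell barcodes, 0.886% of the smaller one.

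The promoter windows of 3 genes are shown: CER1 chose the cells, PLSCR2 had the largest fold change of the genes tested, and MIXL1 is a streak factor whose level in members was lower in both D15 pools than in both D13 pools. Each runs from 250 bases before to 50 after a RefSeq start on GRCh38.p14, 5′ to 3′ on the strand of the gene. Capitals mark exact matches to the T-box letters AGGTGTGA (the motif bound by EOMES and T), to the FOXH1 motif AATCCACA (the partner of SMAD2 and SMAD3), or to their reverse complements TCACACCT and TGTGGATT.
CER1, chr9:14722684-14722983, minus strand: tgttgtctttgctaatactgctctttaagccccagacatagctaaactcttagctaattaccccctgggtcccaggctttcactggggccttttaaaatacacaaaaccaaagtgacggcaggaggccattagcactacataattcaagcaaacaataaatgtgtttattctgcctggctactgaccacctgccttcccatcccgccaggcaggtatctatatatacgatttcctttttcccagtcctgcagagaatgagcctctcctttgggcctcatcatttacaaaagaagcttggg
PLSCR2, upstream start, chr3:146495942-146496241, minus strand: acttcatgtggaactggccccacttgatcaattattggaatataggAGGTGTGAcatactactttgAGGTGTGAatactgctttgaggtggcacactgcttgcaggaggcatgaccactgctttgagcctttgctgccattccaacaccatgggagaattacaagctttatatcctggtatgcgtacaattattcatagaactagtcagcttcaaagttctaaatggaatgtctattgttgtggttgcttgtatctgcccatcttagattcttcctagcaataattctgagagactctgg
MIXL1, chr1:226223414-226223713, plus strand: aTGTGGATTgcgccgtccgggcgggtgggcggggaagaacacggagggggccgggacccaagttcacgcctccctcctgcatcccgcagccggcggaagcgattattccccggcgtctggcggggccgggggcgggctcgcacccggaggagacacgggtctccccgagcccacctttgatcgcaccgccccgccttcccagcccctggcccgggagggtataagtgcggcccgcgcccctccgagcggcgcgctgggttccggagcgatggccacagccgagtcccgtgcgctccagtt
The upstream PLSCR2 window held the T-box letters at positions −204 and −184 before the start, and a second RefSeq start of the gene had none. The MIXL1 window held the FOXH1 letters at −249. The windows of EOMES, ERBB4, NODAL, GSC and GATA6 were searched too and held neither. The SMAD box GTCTAGAC (0.202% of all windows), the TATA box TATAAA (11.5%) and the GATA letters AGATAA (10.3%) were also searched. The TATA letters were in the windows of EOMES and GSC and in 1 of PLSCR2, and the other letters in none. Over all 35116 promoter windows of this length, read on both strands, 0.98% held the T-box letters and 0.817% the FOXH1 letters. These are letter matches only, and the CER1 window held neither.

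The UMIs of each class were added up within a pool, and edgeR's quasi-likelihood test, with the pool as a block, was run on 12962 genes. Genes with an adjusted p under 0.01 and a log2 fold change beyond 0.25 were called. Of the genes tested, 2460 (19%) were higher in CER1-high cells and 2064 (15.9%) lower, the median log2 fold change over all genes was −0.02, and 2594 of the called genes differed by at least 2-fold. The shares of 19% and 15.9% are the background for each list count below. The 4 pools of members lay wholly above the 4 pools of CER1-negative cells for 17.4% of genes and wholly below for 12.6%. Without the pool block 2059 genes were called in place of 4524, without pool B of D15 2578, and with a mitochondrial limit of 5% 2977. Levels below are CPM of the summed cells, given in the order D13 A, D13 B, D15 A, D15 B, and fold changes are log2 differences from the edgeR fit with the standard error (SE) and the Benjamini-Hochberg adjusted p.

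The label of the cells rests on CER1, EOMES, LHX1, APOA1, NPPB and CST1, genes picked with earlier results of these data in view, so their direction is no independent evidence. All 5 beside CER1 were higher in members, by 5.23 or more on the log2 scale, and none of the member pools overlapped a reference pool. EOMES, the T-box factor at the head of the mesendoderm programme (chr3:27715949-27722711), stood at 138, 120, 108 and 120 CPM in members and at 0.698, 3.93, 1.25 and 2.14 CPM in CER1-negative cells. It varied least among the 5, with 122 CPM ± 12.1 (SD, n = 4 pools) against 2.00 ± 1.41, a log2 fold change of 5.94 (SE 0.38, adjusted p = 2.03e-05). LHX1, a LIM homeobox factor of the anterior streak (chr17:36936785-36944612), had 183, 300, 382 and 175 CPM against 0.589, 4.53, 3.62 and 3.05 (log2 fold change 6.48, SE 0.36, adjusted p = 1.04e-05).

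The other genes of the label encode secreted proteins. APOA1, the main protein of high-density lipoprotein and a product of visceral endoderm and liver (chr11:116835751-116837622), stood at 76.3, 56.0, 222 and 253 CPM in members and at most at 5.47 CPM in CER1-negative cells (log2 fold change 5.23, SE 0.44, adjusted p = 6.10e-05). NPPB, the precursor of brain natriuretic peptide (chr1:11857464-11858945), had 1614, 912, 3188 and 2800 CPM against 37.3, 24.6, 9.62 and 29.6 (6.22, SE 0.54, adjusted p = 6.91e-05). CST1, a secreted inhibitor of cysteine proteases (chr20:23747562-23751268), had 1915, 871, 4357 and 4444 CPM against 5.49, 28.8, 40.5 and 60.9 (6.44, SE 0.54, adjusted p = 6.10e-05). In the cells with neither CER1 nor 500 CPM of POU5F1 CST1 had 26.6, 124, 2400 and 1132 CPM, below the members of each pool. For APOA1, NPPB and CST1 both D15 pools of members lay above both D13 pools, while the change of the class difference from D13 to D15 did not pass the test for APOA1 (1.15, adjusted p = 0.631), NPPB (2.10, adjusted p = 0.395) or CST1 (−0.09, adjusted p = 1).

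**Figure D2:**
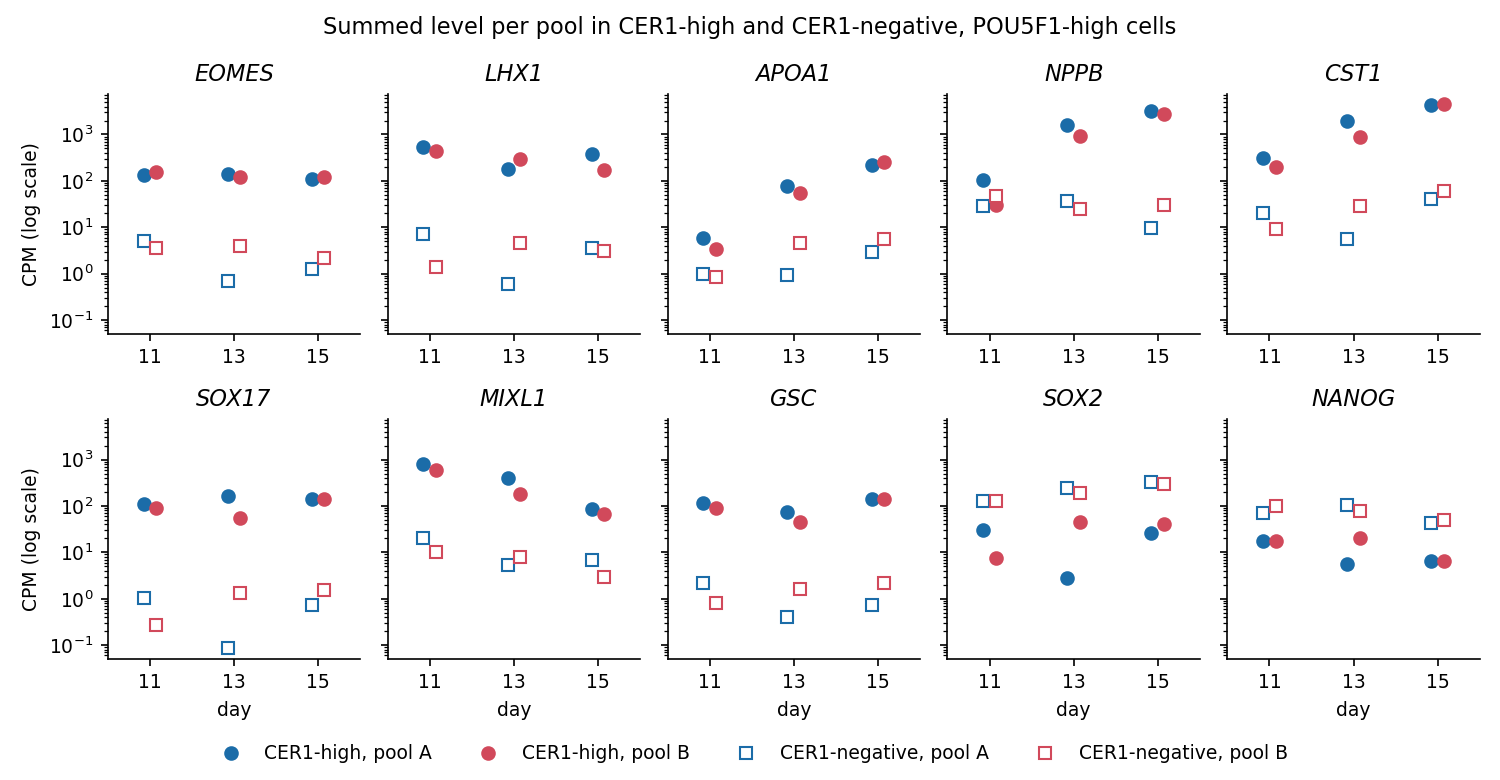
Summed level (y axis, CPM, log scale) of 10 genes by day (x axis) in CER1-high cells (filled circles) and CER1-negative cells (open squares) of pools A and B. EOMES stays between 108 and 152 CPM in members on all 3 days, APOA1 lies at 3.45 to 5.95 CPM on D11 and at 222 to 253 CPM on D15, and SOX2 and NANOG are lower in members in each pool.

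Per cell, after thinning to 10000 UMIs, which left out 6 of the 452 members (2 in D13 B and 4 in D15 B), an EOMES UMI was found in 63.4% ± 1.86 of members (SD, n = 4 pools) and in 1.71% ± 1.63 of CER1-negative cells. LHX1 was found in 64.9% ± 9.69 against 2.13% ± 1.48, APOA1 in 40.1% ± 19.5 against 3.56% ± 2.55, NPPB in 57.5% ± 10.5 against 15.8% ± 8.80 and CST1 in 63.6% ± 15.4 against 24.0% ± 17.1. In the collagen-high cells of the same pools EOMES and LHX1 were found in 0.365% to 4.35%, APOA1 in 0.73% to 4.35% and NPPB in 4.38%, 25.1%, 4.35% and 25.9%. The NPPB shares of CER1-negative cells, at 10.6%, 20%, 6.61% and 25.9%, were below or near those in D13 B and D15 B. The D0 fibroblasts, whose libraries held 0 CER1-high cells, had EOMES, LHX1 and NPPB in 0 of 10634 cells, APOA1 in 1.54% and CST1 in 11.4%. The share of CER1-negative cells with CST1 lay below that of the D0 fibroblasts in D13 A, at 3.66%, and above it in the other pools, at 25.5%, 21.4% and 45.4%. Collagen-high cells ran alongside, from 8.39% in D13 A to 34.3% in D15 B.

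Of the 13 primitive streak and mesendoderm transcription factors tested, 10 (76.9%, against 19% over all genes) were higher in members. Of the rest 0 were lower and 3 were not called, and the median log2 fold change was 3.75. The 10 include EOMES and LHX1, genes of the label, whose direction is no independent evidence. When only genes found in 5% of the cells of all days were tested, 7 were higher. FOXA2, GSC and MESP1 passed the detection limit only through members, so their direction was largely fixed by it. At full depth GSC was found in 50.7% of members and 4.76% of CER1-negative cells, and MESP1 in 22.1% and 4.86%. GSC, the homeobox factor of the organizer, had 73.8, 45.6, 140 and 138 CPM against at most 2.14 CPM (6.12, SE 0.41, adjusted p = 2.54e-05). FOXA2, a pioneer factor of endoderm, stood at 7.97 and 7.79 CPM in the D13 pools and at 63.1 and 44.2 CPM in those of D15, against at most 0.557 CPM (6.0, SE 0.30, adjusted p = 7.96e-06). MIXL1, a paired-type factor of the streak named here after its values were seen, had 403, 181, 87.7 and 68.0 CPM against 5.23, 7.82, 6.69 and 2.89 (4.72, SE 0.37, adjusted p = 4.57e-05), so that both D15 pools lay below both D13 pools. The change of its class difference from D13 to D15 was −1.19 on the log2 scale and did not pass the test (adjusted p = 0.512). OTX2, a factor of the anterior epiblast and head endoderm, was higher by 3.18 and SNAI1, a repressor of epithelial genes, by 1.82. The Brachyury gene T, the classical marker of the streak, was too rare to be tested: it stood at 5.82, 5.10, 1.89 and 1.38 CPM in members and at 3.77, 1.65, 1.81 and 0.287 CPM in CER1-negative cells, and 1.91% ± 1.77 of thinned members had a UMI of it.

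Of the 18 definitive endoderm genes tested, 17 (94.4%, against 19% over all genes) were higher in members and 0 lower, with a median of 5.61. When only genes found in 5% of the cells of all days were tested, 7 were higher, with a median of 4.54. Several of the 17 passed the detection limit only through members, so their direction was largely fixed by it. At full depth SOX17 was found in 50.6% of members and 3.46% of CER1-negative cells. The shares were 68.8% and 3.16% for GATA6, 55.4% and 1.77% for GATA4, and 28.8% and 1.59% for FOXA2. SOX17, the factor on which human endoderm depends, had 162, 56.0, 140 and 138 CPM against 0.0872, 1.31, 0.743 and 1.54 CPM (6.90, SE 0.59, adjusted p = 6.65e-05). GATA6 stood between 69.0 and 93.5 CPM in members and at most at 1.67 CPM in the others (6.45, SE 0.40, adjusted p = 1.78e-05). The chemokine receptor CXCR4, a surface marker used to sort endoderm and named here after its values were seen, had 139, 66.6, 122 and 223 CPM against at most 3.05 CPM (5.96, SE 0.21, adjusted p = 3.57e-06). FGF17, a secreted FGF of the streak and endoderm, was higher by 6.60 and RHOBTB3, a Golgi-associated ATPase, by 6.39, the latter at 815 to 1249 CPM in members. The 1 gene tested and not called was FOXA3.

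Among the apolipoproteins and secreted proteins of visceral endoderm and liver, 9 of 20 genes were expressed widely enough to be tested. Of these, 5 (55.6%, against 19% over all genes) were higher in members. The 5 include APOA1, a gene of the label, whose direction is no independent evidence. APOA2 had 69.3, 118, 228 and 355 CPM against at most 4.69 CPM (5.88, SE 0.32, adjusted p = 8.82e-06), and FLRT3, a membrane protein of the anterior visceral endoderm, was higher by 5.62. In the cells with neither CER1 nor 500 CPM of POU5F1 APOA2 had 0.328, 21.8, 222 and 73.7 CPM and APOA1 1.48, 15.6, 220 and 173 CPM, so in D15 A both were close to the members of that pool, where APOA1 had 221 CPM. APOC1 had 403, 461, 759 and 504 CPM against 130, 180, 142 and 113 CPM, a smaller ratio because CER1-negative cells expressed it too (1.79, SE 0.17, adjusted p = 1.05e-04). APOE was higher by 0.57, a call lost without the block and without either pool of D15. The albumin, transthyretin and fibrinogen genes and APOB fell under the limit of detection in 5% of cells of the classes compared, and the fetal protein gene AFP was not called.

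**Figure D3:**
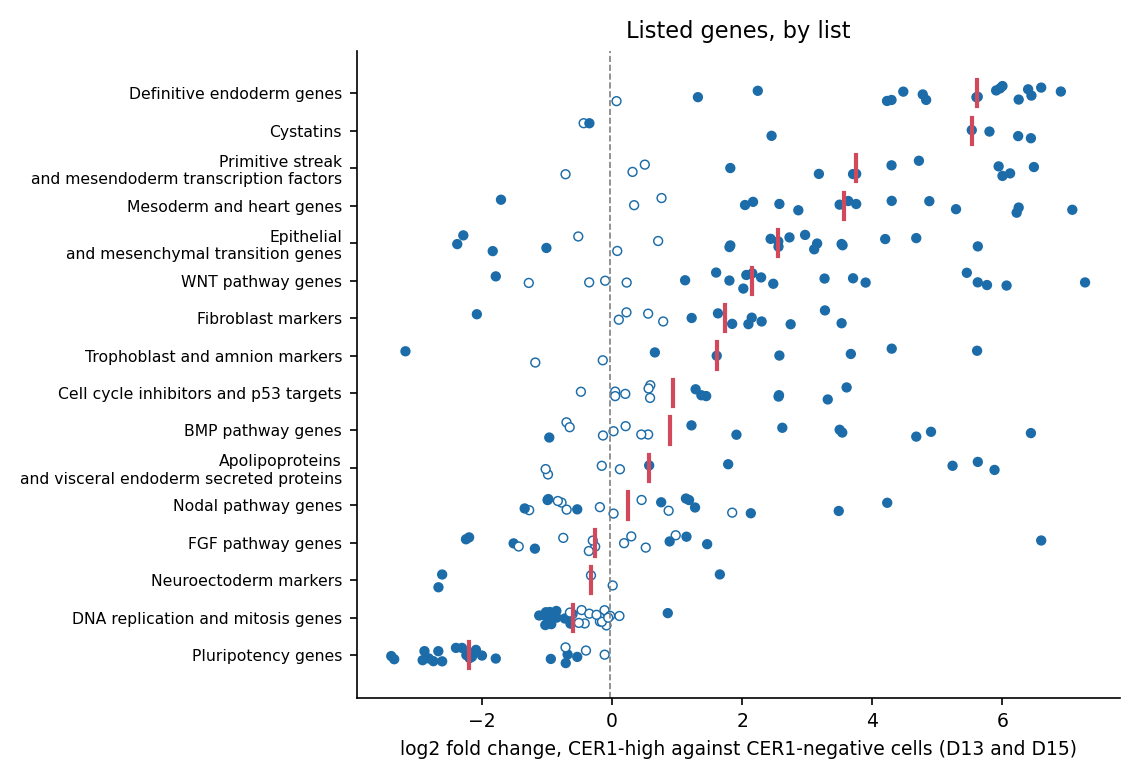
Log2 fold change of CER1-high against CER1-negative cells (x axis) for the tested genes of 16 lists (y axis). Filled points are called genes, open points are not, red bars are list medians and the dashed line is the median of all 12962 genes at −0.02. Definitive endoderm genes have a median of 5.61, cystatins of 5.53 and pluripotency genes of −2.19.

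The mesoderm and heart list held genes of mesoderm precursors and of contractile cells. Of its 16 tested genes 13 were higher and 1 lower (81.2% and 6.25%, against 19% and 15.9% over all genes), with a median of 3.56. The 13 include NPPB, a gene of the label, whose direction is no independent evidence. When only genes found in 5% of the cells of all days were tested, 9 were higher, with a median of 2.7. NPPA, GATA4, HAND1 and ISL1 passed the detection limit only through members, so their direction was largely fixed by it. At full depth NPPA was found in 15.1% of members and 0.235% of CER1-negative cells, and HAND1 in 22.1% and 4.74%. With all cells without CER1 as the reference 9 were higher, with a median of 1.80. MYL7, the atrial myosin light chain, had 283, 164, 723 and 620 CPM against at most 13.9 CPM (5.29, SE 0.57, adjusted p = 1.81e-04). NPPA, the atrial natriuretic peptide gene, was much rarer than NPPB, at 24.8, 4.96, 8.48 and 5.18 CPM against at most 0.121 CPM (7.07, SE 0.56, adjusted p = 4.71e-05). GATA4, a factor shared by endoderm and heart, was higher by 6.25. HAND1, a factor of lateral and extra-embryonic mesoderm, had 80.6 and 35.3 CPM in the D13 pools and 21.7 and 7.94 CPM in those of D15, against at most 3.24 CPM (4.30, SE 0.36, adjusted p = 6.03e-05). In the cells with neither CER1 nor 500 CPM of POU5F1 HAND1 had 78.2, 32.7, 97.8 and 20.5 CPM, near the members in D13 and above them in D15. The early mesoderm factor MESP1, named after its values were seen, was higher by 3.75 and stood at 56.1, 33.2, 39.6 and 2.42 CPM in members, so in D15 B it was near the 1.46 CPM of the CER1-negative cells of that pool. KDR, the VEGF receptor of vascular precursors, was the lower one.

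Genes of the Nodal pathway were called in both directions, and many were not called. NODAL itself, the ligand, had 394, 114, 68.8 and 124 CPM in members and 148, 49.9, 34.3 and 44.7 CPM in CER1-negative cells, and was higher by 1.19 (SE 0.099, adjusted p = 5.91e-05), a call lost without the block. Across pools these levels overlapped, since the CER1-negative cells of D13 A had more than 3 of the 4 member pools, and only within each pool were members higher. The feedback inhibitors LEFTY1 and LEFTY2, which block Nodal receptors, were not called, though LEFTY2 passed the threshold in 6 of 18 alternatives (1.25 to 2.42 over all of them) and LEFTY1 in 2. LEFTY2 had 215, 165, 688 and 512 CPM against 170, 78.5, 51.6 and 79.4 CPM (1.85, SE 0.52, adjusted p = 0.0167), and LEFTY1 had 105 against 216 CPM in D13 A and 142, 209 and 270 against 82.2, 100.2 and 112 CPM in the other pools. FST, whose product follistatin traps activins, had the largest difference of the list, at 1056, 552, 778 and 734 CPM against 24.8 to 52.5 CPM (4.23, SE 0.24, adjusted p = 1.22e-05). The type I receptor ACVR1B was higher by 2.13. The co-receptor TDGF1 (−0.53), the transcriptional partner FOXH1 (−0.98) and the SMAD repressor SKIL (−1.34) were lower. The calls of TDGF1 and FOXH1 were lost without the block, and that of TDGF1 also with all cells without CER1 as the reference. Over the 20 genes tested, 7 were higher and 4 lower, or 35% and 20% against the 19% and 15.9% over all genes, with a median of 0.24. Without the block 5 were higher and 1 lower. The median was 0.72 without pool A of D13, 0.137 without pool A of D15 and 0.0385 without pool B of D15.

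In the WNT pathway list 16 of the 21 tested genes were higher and 1 lower, with a median of 2.16. These are 76.2% and 4.76%, against 19% and 15.9% over all genes. When only genes found in 5% of the cells of all days were tested, 11 were higher, with a median of 2.01. With all cells without CER1 as the reference 15 were higher and 2 lower, with a median of 1.47. DKK4 was higher by 7.27 and had 39.8, 50.6, 2.83 and 30.0 CPM against at most 0.463 CPM. It passed the detection limit only through members, so its direction was largely fixed by it. DKK1, a blocker of the LRP co-receptors, had 696 and 319 CPM on D13 and 98.0 and 85.2 CPM on D15, against 4.25, 10.8, 1.30 and 2.42 CPM (5.76, SE 0.42, adjusted p = 3.52e-05). RSPO3, which sustains WNT receptors at the surface, was higher by 6.06 and its receptor LGR5 by 5.62. The ligand gene WNT3, needed for the streak in the mouse, was higher by 1.80, at 5.66 to 14.7 CPM in members. AXIN2, a general target of beta-catenin, had 2.76, 5.95, 5.66 and 5.52 CPM against 5.78, 6.21, 6.36 and 5.16 CPM and was not called (−0.35, adjusted p = 0.256).

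BMP2 was the leading gene of the BMP list, with 123, 54.9, 108 and 117 CPM against at most 1.39 CPM (6.44, SE 0.34, adjusted p = 8.64e-06). BMP4 was higher by 3.5, the antagonist gene NOG by 4.90 and the homeobox targets MSX1 and MSX2 by 4.68 and 3.54, while the target ID1 was lower (−0.96). The call of MSX2 was lost without the block and that of ID1 without pool A of D15. In all 8 of the 16 tested genes were higher and 1 lower (50% and 6.25%, against 19% and 15.9% over all genes), with a median of 0.89. The median was 0.49 with all cells without CER1 as the reference, and 0.44 with 5 genes higher when only genes found in 5% of the cells of all days were tested. In D15 BMP4 had 80.1 and 62.1 CPM in members and 158 and 97.8 CPM in cells with neither CER1 nor 500 CPM of POU5F1. In the FGF list 4 of 17 genes were higher and 4 lower (23.5% each way, near the 19% and 15.9% over all genes), with a median of −0.26, or −0.0375 without pool A of D13. FGF17 and the feedback inhibitors SPRY2 (1.46) and DUSP6 (1.15) were higher, and FGF2 (−2.19), FGF19 (−2.24) and the ETS factor ETV4 (−1.51, a call lost without the block) were lower.

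Adhesion and cytoskeleton genes differed strongly. CDH2, the N-cadherin gene, had 218, 259, 399 and 259 CPM against 11.1, 19.9, 12.6 and 13.3 CPM (4.20, SE 0.20, adjusted p = 6.90e-06), and CDH1, the E-cadherin gene, had 3.98, 15.4, 3.77 and 8.97 CPM against 31.8 to 45.8 CPM (−2.28, SE 0.27, adjusted p = 2.97e-04). The intermediate filament gene VIM was higher by 3.54 and so were the epithelial keratins KRT8 (2.56), KRT18 (1.81) and KRT19 (2.73), which mark epithelia where VIM marks mesenchyme. EPCAM, an epithelial adhesion molecule kept by endoderm, had 146, 107, 232 and 318 CPM against 363, 191, 239 and 220 CPM and was not called (−0.52, adjusted p = 0.141). Of the 21 genes of the epithelial and mesenchymal list 14 were higher and 4 lower, with a median of 2.56. The shares of 66.7% and 19% stand against 19% and 15.9% over all genes. With all cells without CER1 as the reference 9 were higher and 4 lower, with a median of 0.76. VIM stood at 4092, 1553, 3704 and 3244 CPM in the cells without CER1 that had under 500 CPM of POU5F1, above its 3008, 1028, 2234 and 1882 CPM in the members of the same pools.

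The cystatins and a few of the leading genes belong to families of near-identical copies, between which the counting could divide reads, so their single values are uncertain. CST2 (6.24), CST4 (5.53) and CST5 (5.80) were higher together with CST1, all from one cluster on chromosome 20, at 2.55 to 84.9 CPM. The median of the cystatin list was 5.53, or 1.04 with 2 genes higher when only genes found in 5% of the cells of all days were tested. The list includes CST1, a gene of the label, whose direction is no independent evidence. The more distant CST3, the widely expressed cystatin C gene, was higher by 2.45. CSTB was lower, a call lost in 11 of 18 alternatives, among them each pool left out. Outside the lists, among genes at 20 CPM or more in the higher class in each pool, the largest fold changes were those of PLSCR2, a phospholipid scramblase gene at chr3:146391421-146495991, with 328, 204, 181 and 327 CPM against 0.349, 2.96, 0.604 and 2.76 CPM (7.33, SE 0.54, adjusted p = 3.54e-05), and of ERBB4, a receptor of neuregulins at chr2:211375717-212538841, with 127, 157, 146 and 181 CPM against 0.153, 2.26, 0.418 and 1.49 CPM (7.18, SE 0.46, adjusted p = 1.92e-05). NR0B1, which encodes the nuclear receptor DAX1, had 81.2, 22.7, 55.6 and 21.1 CPM against at most 0.423 CPM (6.76). ERBB4 and NR0B1 passed the detection limit only through members, so their direction was largely fixed by it. At full depth ERBB4 was found in 69.5% of members and 3.91% of CER1-negative cells, and PLSCR2 in 68.55% and 6.09%. The other leading rises were LINC01467 (6.74), PRSS2 (6.64), GYPB (6.57), ST8SIA4 (6.53) and RP11-511B23.1 (6.35). Of these PRSS2, a trypsinogen gene, and GYPB, a glycophorin gene, have near-identical neighbours.

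Pluripotency genes were lower in members, 21 of 24 (87.5%, against 15.9% over all genes) with 0 higher and a median of −2.19. Because the reference cells had to express POU5F1, this direction is in part set by the choice of cells. With all cells without a CER1 UMI as the reference, whatever their POU5F1 level, 20 were lower and the median was −1.95. That reference still held 63.6%, 70.1%, 87.5% and 84.8% POU5F1-high cells in D13 A, D13 B, D15 A and D15 B. Summed over the list, members had 1638, 2851, 2161 and 2157 CPM. CER1-negative cells had 7519, 7259, 7919 and 7366 CPM, and cells with neither CER1 nor 500 CPM of POU5F1 483, 2389, 1069 and 1300 CPM. Members thus lay between these groups in each pool. SOX2 had 2.76, 45.6, 26.4 and 40.4 CPM against 238, 190, 320 and 291 CPM (−3.39, SE 0.51, adjusted p = 8.65e-04), and NANOG 5.52, 20.4, 6.60 and 6.56 CPM against 103, 76.1, 43.0 and 49.9 CPM (−2.88, SE 0.33, adjusted p = 2.40e-04). TERF1, a telomere protein gene abundant in stem cells, was lower (−2.91), and so was the deubiquitinase gene USP44 (−3.35). LIN28A, the blocker of let-7 maturation, and TDGF1 were the called genes nearest to the reference, with LIN28A at 126, 439, 387 and 258 CPM against 204, 621, 615 and 359 CPM (−0.68), a call lost without the block. PODXL, a sialomucin of the apical surface, was not called (−0.11). The largest falls outside the list were SCG3 (−3.45), FOXD3-AS1 (−3.43), LECT1 (−3.22), RP11-132A1.3 (−3.12), RP11-1144P22.1 (−3.10), RP11-267L5.1 (−2.94) and PDPN (−2.92).

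Genes of other cell types moved with the class as well. Of the 14 fibroblast markers tested 9 were higher in members and 1, THY1, lower, with a median of 1.74, and 5 were higher without the block. The shares of 64.3% and 7.14% stand against 19% and 15.9% over all genes. Summed over the list, members had 4096, 2359, 3404 and 3705 CPM, CER1-negative cells 1460, 1269, 585 and 863 CPM, and collagen-high cells 16990 to 25870 CPM. TAGLN, an actin-binding protein gene of contractile cells, made most of the level in members, at 2729, 1364, 2892 and 2979 CPM. COL1A1 had 406, 263, 162 and 191 CPM in members, 92.0, 207, 50.8 and 85.4 CPM in CER1-negative cells and 5412 to 8148 CPM in collagen-high cells. DCN, a proteoglycan gene found in 94.9% of the D0 fibroblasts after thinning, had 1.84, 1.56, 0 and 0.69 CPM in members against 57.6 to 106 CPM in collagen-high cells. POSTN, found in 24.4% of the D0 fibroblasts, had 7.36, 6.80, 0 and 2.07 CPM against 226 to 368 CPM. LUM, another proteoglycan gene, found in 98.7% of them, was higher than in the reference, at 154, 53.1, 43.4 and 45.2 CPM against 6.04, 17.0, 2.14 and 4.72 CPM. With all cells without CER1 as the reference, which adds the collagen-high cells to it, 1 fibroblast marker was higher and 7 lower, and COL1A1 (−1.65) and COL1A2 (−0.80) turned from higher to lower, while the calls of COL3A1 (−0.53, adjusted p = 0.0316), LUM and TAGLN were lost. The calls of COL1A1, COL1A2 and COL3A1 were also lost without the block, and those of COL1A1 and COL3A1 without pool B of D15. Only 3 members met the collagen limits themselves. The part of free RNA in these levels was not tested.

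Trophoblast and amnion markers gave 6 genes higher and 1 lower of 9 tested (66.7% and 11.1%, against 19% and 15.9% over all genes), with a median of 1.61. With all cells without CER1 as the reference 3 were higher and 3 lower, with a median of 0.358. When only genes found in 5% of the cells of all days were tested, 3 were higher and 1 lower, with a median of 0.248. HAND1, GATA3 and ISL1 passed the detection limit only through members. At full depth GATA3 was found in 32.8% of members and 4.53% of CER1-negative cells, and ISL1 in 12.2% and 3.07%. The leading gene was CCKBR, a gastrin receptor gene, with 248, 96.2, 180 and 280 CPM against at most 4.77 CPM (5.61), followed by HAND1 and GATA3 (3.67). Summed over all members, ELF5 and VTCN1 had 0 UMIs, CGA 1, CDX2 2, TP63 3, TFAP2A and XAGE2 14 each, GATA2 19, GABRP 22 and TFAP2C 116, and GATA3 had 219. CSH1 was lower (−3.17), a call lost without the block and without pool B of D15. KRT7 had 1.84, 3.97, 0 and 4.14 CPM in members and was not called. Summed over the list, members had 243 to 466 CPM, CER1-negative cells 33.3 to 165 CPM and collagen-high cells 786 to 1560 CPM. Of the 5 neuroectoderm markers tested 1, ZIC1, was higher, a call lost in 9 alternatives, and 2, SOX3 and POU3F1, were lower, calls lost without pool B of D15. These are 20% and 40% of a short list, the first near the 19% over all genes and the second against 15.9%. Among the markers too low to be tested, PAX6 had 0.613, 1.28, 3.77 and 8.97 CPM in members against at most 0.313 CPM in CER1-negative cells. The other untested neuroectoderm markers were not all raised. Over the 452 members and the 3672 CER1-negative cells, LHX2 had 17 and 12 UMIs and SIX3 18 and 13. RAX had 3 and 27, HES5 1 and 21, FEZF1 0 and 32, and SOX1 0 in both.

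Of the 29 replication and mitosis genes 12 (41.4%, against 15.9% over all genes) were lower, 1, TYMS, was higher and 16 were not called, with a median of −0.61. Here 4 of the helicase subunits led with MCM3 at −1.12, MCM2 at −1.02 and MCM5 and MCM7 at −1.01 each. TOP2A, a topoisomerase of dividing cells, had 29.7, 105, 301 and 140 CPM against 85.2, 141, 303 and 184 CPM and was not called (−0.65, adjusted p = 0.0327). The count of lower genes ran from 2 to 19 over the alternatives, and MCM2, MCM5, MCM7 and TYMS were no longer called without the block. Of 14 cell cycle inhibitors and p53 targets 7 (50%, against 19% over all genes) were higher and 0 lower, with a median of 0.94. With all cells without CER1 as the reference 4 were higher, with a median of 0.123. CDKN2B, the p15 gene, had 23.0, 12.8, 14.1 and 20.7 CPM against at most 2.08 CPM (3.32), CDKN2A (2.57) and GADD45A (2.56) followed, and BTG2, an antiproliferative gene, was higher by 3.61. With the wider reference CDKN2A (0.094) and CDKN2B (0.80) were no longer called.

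The D11 pools lie outside the rule, but their classes were picked by the same CER1 and POU5F1 limits. Part of any agreement with the later days is therefore set by that choice. On D11, 855 of 13133 genes (6.51%) were called higher and 556 (4.23%) lower in the 222 CER1-high cells of that day. Of the 4481 genes called on D13 and D15 and tested on D11, 95.5% had the same sign on D11, against 72.1% of the genes not called. The 1200 genes called in both made up 26.8% of the D13 and D15 list and 85% of the D11 list. Without pool A or pool B of D11 the D11 count was 198 or 31.

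Of the 13 streak and mesendoderm transcription factors tested on the later days, 11 were called on D11, where 6.51% of all genes were called higher and 4.23% lower. EOMES and LHX1 of the label are among the 11. CST1 was called too, while NPPB and APOA1 were not. EOMES stood at 135 and 152 CPM in the D11 members of pools A and B (log2 fold change 5.01, adjusted p = 4.85e-04), LHX1 at 546 and 432 CPM (7.12, adjusted p = 3.12e-04), MIXL1 at 794 and 602 CPM (5.52, adjusted p = 1.51e-04) and the endoderm factor SOX17 at 112 and 91.0 CPM (7.51, adjusted p = 9.10e-04). CST1 had 305 and 198 CPM against 20.2 and 9.23 CPM (4.08, adjusted p = 0.00434). NPPB had 104 and 30.9 CPM against 29.4 and 46.7 CPM in the CER1-negative cells of D11, so the classes overlapped (0.60, adjusted p = 0.472). APOA1 had 5.95 and 3.45 CPM against 0.96 and 0.866 CPM (2.22, adjusted p = 0.0709). FOXA2 was called on D11 (3.26, adjusted p = 8.96e-04) at 5.36 and 3.86 CPM. T had 20.2 and 24.0 CPM on D11, its highest level among members, against 7.46 and 6.46 CPM, and was called higher. Whether the class differences of D11 differ from those of the later days was not tested. POU5F1 was at 512 and 450 CPM in the D11 members, and 40.4% and 32.7% of them reached 500 CPM, against at most 7.56% in a pool of D13 or D15.

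Between D13 and D15, the class difference of 1 gene of 13133 (0.00761%) changed past the threshold, and 1344 genes had an unadjusted p under 0.05. DESeq2 called 100. The gene was WFDC2, which encodes a secreted protein with whey acidic protein domains. It had 193 and 193 CPM in the D13 members and 557 and 901 CPM in those of D15, while CER1-negative cells had 95.6, 93.1, 80.7 and 106 CPM. Its class difference was larger on D15 by 1.94 on the log2 scale (adjusted p = 0.00592). The call was lost without either pool of D15 (adjusted p = 0.0586 and 0.0579), with the 8 sums of D13 and D15 alone (0.0375) and without the block (0.680). TAGLN (2.08, adjusted p = 0.0258), KRT18 (1.13, adjusted p = 0.0215) and GATA3 (2.56, adjusted p = 0.0498) stood nearest to it among the genes described here.

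**Figure D4:**
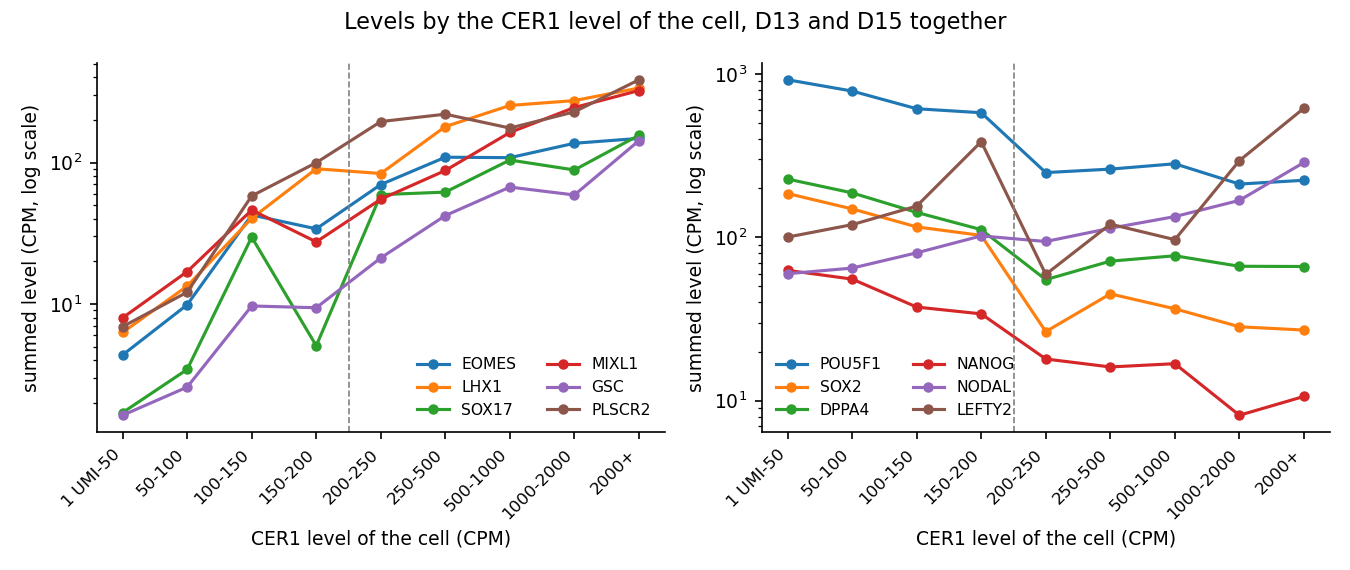
Summed level (y axis, CPM, log scale) of streak genes, SOX17 and PLSCR2 (left) and of pluripotency and Nodal pathway genes (right) in cells grouped by their own CER1 level (x axis, CPM), all 4 pools of D13 and D15 together, with the dashed line at 200 CPM. EOMES goes from 4.36 CPM in cells with a trace of CER1 to 148 CPM at 2000 CPM or more, and POU5F1 from 920.5 to 223 CPM.

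Levels differed along the CER1 scale on both sides of the limit. EOMES stood at 4.36 CPM in the 2071 cells with CER1 under 50 CPM, at 42.6 CPM in the 98 cells with 100 to 150 CPM, at 109 CPM in the 88 cells with 250 to 500 CPM and at 148 CPM in the 144 cells with 2000 CPM or more. GSC stood at 21.2, 42.2, 67.1, 59.0 and 143 CPM in the 5 groups of members from 200 to 250 CPM upward, and MIXL1 went from 55.1 to 323 CPM over the same range. NODAL went from 94.3 to 287 CPM and LEFTY2 from 59.3 to 617 CPM. POU5F1 lay between 212 and 282 CPM and SOX2 between 26.5 and 45.1 CPM in the groups of members, in no order with CER1. These groups mix pools of unequal size and are a description.

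Members differed among themselves. A SOX17 UMI was found in 215 of the 452, a split chosen after the data were seen and therefore not tested. By pool it was found in 33 of 79, 97 of 238, 10 of 18 and 75 of 117. The genes given here were picked after their values were seen. APOA1 stood at 200, 138, 353 and 331 CPM in members with SOX17 and at 2.93, 6.17, 19.1 and 104 CPM in members without. CXCR4 had 344, 155, 199 and 291 CPM against 17.1, 12.8, 4.79 and 92.3 CPM, and CST1 4792, 2137, 7151 and 5890 CPM against 209, 97.7, 59.8 and 1686 CPM. FOXA2 was found in 27.3%, 37.1%, 80% and 58.7% of members with SOX17 and in 2.17%, 2.13%, 0 and 11.9% of those without, at full depth. After thinning, collagen-high cells of the same pools had a SOX17 UMI in 0.365% to 4.35% and a FOXA2 UMI in at most 0.739%. NPPB, counted above among heart genes, also went with SOX17, at 3502, 1861, 4922 and 3167 CPM against 495, 333, 519 and 2100 CPM.

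The mesoderm and heart genes went both ways. MYL7 had 399, 282, 879 and 625 CPM with SOX17 against 214, 92.2, 483 and 609.9 CPM without, and GATA4 79.8, 28.8, 91.8 and 68.9 CPM against 15.1, 6.62, 19.1 and 15.1 CPM. HAND1 had 124, 50, 52.6 and 20.1 CPM in members without SOX17 against 8.23, 11.2, 1.56 and 1.58 CPM in those with SOX17, and BMP4 293, 127, 129 and 96.3 CPM against 114, 47.1, 48.2 and 44.2 CPM. MIXL1 was higher without SOX17 in 3 pools (509 against 224 CPM in D13 A) and not in D15 B, at 57.2 against 73.7 CPM. EOMES stood at 122, 108, 100.5 and 86.3 CPM without and at 164, 140, 114 and 138 CPM with SOX17. POU5F1 was higher without SOX17 in D13 A (212 against 91.4 CPM) and D15 A (347 against 85.5 CPM), nearly level in D13 B (292 against 288 CPM) and lower in D15 B (217 against 248 CPM). The D15 A level leaned on a single cell without SOX17 at 1346 CPM, and the rest of that group ran from 40.5 to 296 CPM. The median member with SOX17 had 25120 UMIs and the median member without 27890.

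**Figure D5:**
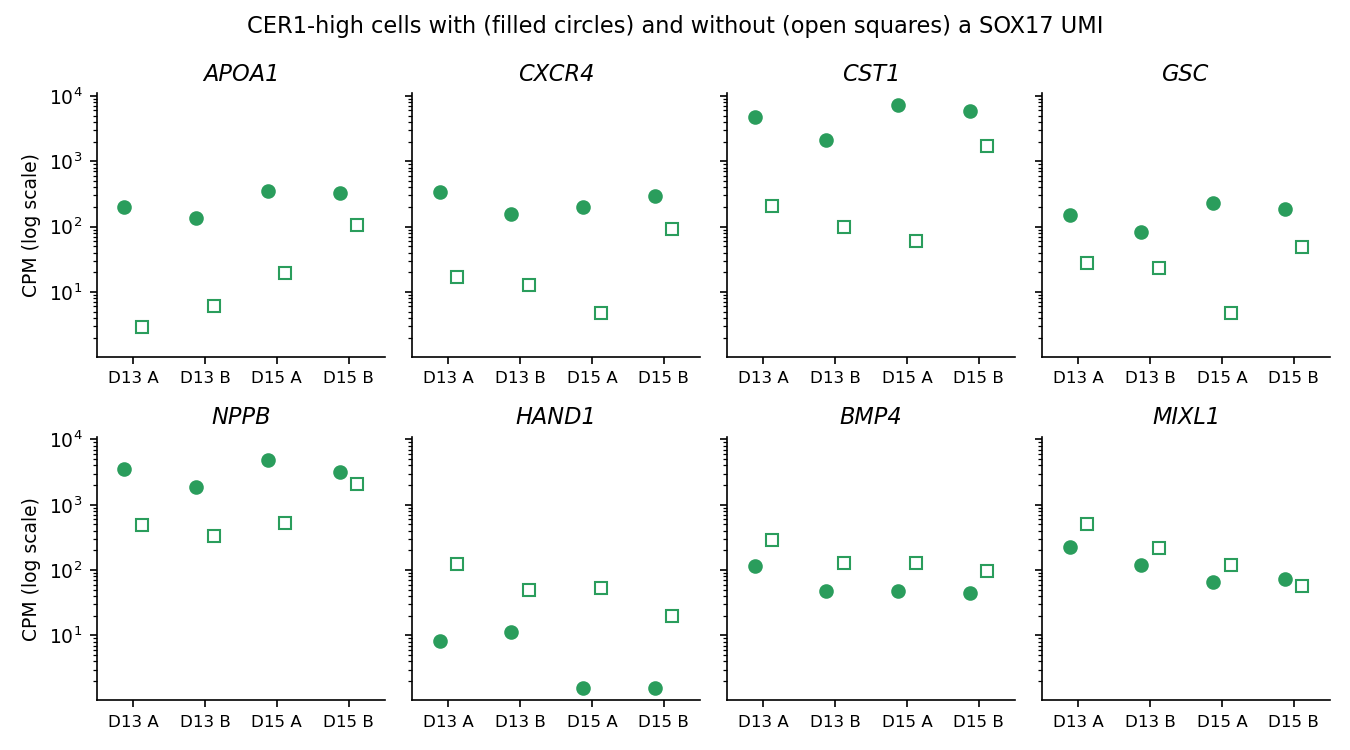
Summed level (y axis, CPM, log scale) of 8 genes in CER1-high cells with a SOX17 UMI (filled circles) and without (open squares), by pool (x axis). APOA1, CXCR4, CST1, GSC and NPPB are higher with SOX17 in all 4 pools, HAND1 and BMP4 are higher without it in all 4, and MIXL1 is higher without it in all but D15 B.

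Rank correlations over single members use the same cells as the SOX17 split and are no separate evidence for it. They are computed on CPM of sparse counts, from cells that share a library and differ in depth, and are descriptions. Over the 79, 238, 18 and 117 members of the 4 pools, Spearman's rho of SOX17 with CXCR4 was 0.65, 0.61, 0.85 and 0.43, and of APOA1 with FOXA2 0.53, 0.52, 0.86 and 0.59. SOX17 with HAND1 gave −0.39, −0.28, −0.24 and −0.24. With BMP4 it gave −0.31, −0.29, −0.48 and 0.00, and with MIXL1 −0.19, −0.17, 0.09 and 0.09. In D15 A the sign for MIXL1 thus ran against the summed levels. NPPB went with TAGLN (0.62, 0.48, 0.70 and 0.67) and with MYL7 (0.63, 0.40, 0.73 and 0.59), genes of contractile cells, and also with APOA1 (0.56, 0.29, 0.58 and 0.26). EOMES went with MIXL1 (0.51, 0.38, 0.76 and 0.42) and with LHX1 (0.42, 0.41, 0.74 and 0.33), and it went against TAGLN (−0.36, −0.26, −0.55 and −0.31). CER1 went with NODAL (0.29, 0.43, 0.81 and 0.39).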

How the data were processed

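Counts were taken as the authors deposited them: whole-number UMI counts per gene and cell barcode, made with Cell Ranger 2.2 on hg38 with a GRCh38 annotation, 33694 genes and no normalization. A cell was kept with 1000 or more genes detected and no more than 10% of its UMIs from mitochondrial genes. The pools of D13 and D15 held 33181614 to 154509200 UMIs in kept cells. CPM were computed from all UMIs of a cell or of summed cells. Genes detected in at least 5% of the cells, as a mean over the sums compared, were tested. The test ran on UMI sums per pool and class with edgeR 4.0.16 in R 4.3.3 (quasi-likelihood, TMM, Benjamini-Hochberg). The pool was a block, since both classes come from the cells of the same pool. This pairing follows from the design and was not inferred from the data. D13 against D15 and D11 came from 1 fit of 12 sums. Drawn at the same depths, simulated counts with 200 changed genes gave 26, 49, 50 and 50 calls of 50 at 2-, 4-, 8- and 16-fold, with 2 false calls over 12962 genes, so smaller changes can be missed. The changed genes were drawn above a minimum count and balanced in direction, while 4524 genes were called in the data. These rates therefore need not hold for the data.

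The members, the 16 gene lists and the tests were chosen with earlier results of these data known. Genes named are the 6 of the label, the 15 largest rises and 10 largest falls (called, same direction and 20 CPM or more in the higher class in all 4 pools, no mitochondrial or ribosomal protein genes) and, from each list, up to 4 called and 2 uncalled genes. MIXL1, NODAL, MESP1, CXCR4, OTX2, SNAI1, APOE, WNT3, BMP4, ID1, SPRY2, DUSP6, TDGF1, FOXH1, LIN28A, CDH1, KRT8, KRT18, KRT19, CST3, THY1, KDR, CSTB, POSTN, TYMS, TOP2A, COL1A1, COL1A2, the genes named only by a count of UMIs and the genes of the SOX17 split were named after their values were seen. Thinning drew 10000 UMIs per cell without replacement. Doublet scores came from scrublet in scanpy 1.11.5. Coordinates are from gencode v44 by Ensembl identifier and promoters from RefSeq. Alternatives were DESeq2 1.42.0 and its size factors, other filters on genes and cells, other class limits, no block and each pool left out. Of the other days, D0 was used for background and shares, and D3 to D9 for shares only.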

Additional observations from a re-analysis of the deposited data

Results flagged for a closer look

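One result met a rule set for a closer look. The class difference of WFDC2 was larger on D15 than on D13 by 1.94 on the log2 scale in the edgeR fit (adjusted p = 0.00592), and it was higher in both D15 pools of CER1-high cells than in both D13 pools. Groups of 2 pools are too small for a test of outlying pools.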

How the results depend on the processing

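Calls between the classes numbered 4524, and 2059 without the replicate block, 2977 with a mitochondrial limit of 5%, 2819 without both B pools (an alternative added after seeing the data) and 2578 to 4064 with 1 pool left out. The other alternatives stayed within 1.5 times. The changes from D13 to D15 numbered 1, and 100 with DESeq2, 248 with no filter on genes, 0 with the 8 sums alone, 0 without the replicate block and 0 to 70 with 1 pool left out. The D11 calls numbered 1411, and 3270 with no filter, 303 without the replicate block and 31 to 198 with 1 pool left out. The cause of these moves was not tested. The D13 share was 7.32% at a limit of 100 CPM, 4.38% at 500 CPM and 7.03% after thinning. Thinned to 5000 UMIs, EOMES was found in 42.8% and LHX1 in 47.1% of members, and unthinned the shares were 84.4% for EOMES, 81.3% for LHX1, 71.9% for NPPB and 79.2% for CST1. With all cells without CER1 as the reference COL1A1 (−1.65), COL1A2 (−0.80) and S100A4 (−1.19) were called lower, COL3A1 (−0.53) and CDKN1A (−0.50) turned in sign with no call, and PODXL was at 0.11. PODXL ran from −0.28 to 0.043 with 1 pool left out, and LEFTY1 was at −0.13 without both B pools. Of 109 called genes, each checked under those of the 18 alternatives in which it was tested (15 to 18), 82 stayed called in each of these and 105 kept their direction. Without the replicate block 17 were no longer called (COL3A1, COL1A1, COL1A2, CSH1, ETV4, MCM2, MCM5, MCM7, MSX2, ZIC1, APOE, CSTB, FOXH1, LIN28A, NODAL, TDGF1 and TYMS), without pool B of D15 10 (COL3A1, COL1A1, CSH1, POU3F1, SOX3, WFDC2, ZIC1, APOE, CDKN1A and CSTB), without pool A of D15 5 (WFDC2, APOE, COL1A1, CSTB and ID1), and without either pool of D13 ZIC1 and CSTB. With all cells without CER1 as the reference CDKN2A, CDKN2B, LUM, TAGLN, TDGF1, ZIC1, FN1 and CSTB were no longer called. Pool A of D15 held 18 members, so its sums carry the most counting error.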

Other observations

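Cells with EOMES also lay outside the CER1 limit. Among the 1263 cells with neither CER1 nor 500 CPM of POU5F1, 63 had at least 50 CPM of EOMES and under 200 CPM of COL3A1, limits set after the data were seen, with 11, 24, 8 and 20 of them in the 4 pools. On D15 these cells had 1429 and 1554 CPM of APOA1, above the 222 and 253 CPM of the members, and 17930 and 8598 CPM of CST1, with SOX17 at 126 and 111 CPM and NPPB at only 455 and 208 CPM. On D13 the 11 cells of pool A had 462 CPM of HAND1 and 2.01 CPM of APOA1, while the 24 cells of pool B had 218 CPM of APOA1. Their median depth was 26470 UMIs, and their summed CER1 was 0 by definition.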
